A study of Mus musculus with 9 samples.

Results

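The core circadian clock loop was described through 10 genes in brain RNA of 3 mouse genotypes, and none of the 10 differed between genotypes past an adjusted p of 0.05. They were chosen by name from the textbook loop, not by a cut on their values, though earlier results of these data were known. The positive limb has 3 of them (Clock, Npas2 and Arntl) and the negative limb 7 (Per1, Per2, Per3, Cry1, Cry2, Nr1d1 and Nr1d2). The deposited tables list 54446 genes, of which 17355 passed the filter on low counts and were tested, all 10 clock genes among them. RNA had been sequenced from brains of male mice aged 3 to 4 months, with 3 libraries each of the inbred strain B6N as wild type, of heterozygous Tfap2a knockouts (Tfap2a+/-) and of heterozygous Tfap2b knockouts (Tfap2b+/-). Tfap2a and Tfap2b encode AP-2 transcription factors. The question put to the clock genes was whether their levels, and the balance of the positive against the negative limb, were alike in all libraries, since both change with the time of day at which tissue is taken. The hour of collection, the brain region and the construction of the knockout alleles are not given in the sources used here. The replicates are not tied by any label to different animals, so p-values describe the spread among these 9 libraries, which could be of technical origin.

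The clock is a feedback loop of transcription that runs in most cells. CLOCK, or its close relative NPAS2, pairs with the protein of Arntl, called BMAL1, and the pair binds E-box elements to switch on the Per, Cry and Nr1d genes. PER and CRY proteins return to the nucleus and repress the pair, while the REV-ERB proteins made by Nr1d1 and Nr1d2 repress Arntl. In mouse tissues Arntl RNA and the RNAs of the Nr1d and Per genes therefore peak at widely separated hours, whereas Clock RNA changes little over the day. In the forebrain, NPAS2 can take the place of CLOCK.

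Levels are given as CPM, the usual read counts relative to library size, after TMM scaling, which adjusts for RNA composition. Gene counts came to between 21946800 and 29214975 per library, and each clock gene had at least 291 counts in every library, the lowest being Cry1 in wild-type library 1. At this depth 3 counts correspond to 0.103 to 0.137 CPM, and counting error alone gave the clock genes an SD of 0.02 to 0.07 on the log2 scale. The neuronal genes Snap25 at 2152 to 3547 CPM and Syt1 at 1128 to 2070 CPM, and the myelin gene Mbp at 973 to 2920 CPM, fitted the label of brain in every library. Tfap2a stood at 0.610, 0.263 and 0.734 CPM in wild type, against 0.445, 0.223 and 0.461 CPM in the Tfap2a+/- libraries, so the groups overlapped. Tfap2b stood at 2.25, 0.715 and 14.8 CPM in wild type, against 32.9, 8.90 and 5.81 CPM where the label reads Tfap2b+/-. Tfap2b was thus not lower in the libraries whose label says that they carry its knockout, and they are called here by that label throughout. Library 1 labelled Tfap2b+/- stood apart in regional genes: the summed level of the 2 hindbrain genes that passed the filter, Tph2 and Slc6a4 of serotonin neurons, was 66.5 CPM there and at most 1.16 CPM in the wild-type libraries. Of the other listed genes, Fev and Hoxb3 did not pass the filter, and Hoxa2 and Hoxb5 were at 0 in all 9 libraries.

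The sequence just before the transcription start was searched for exact matches to short elements through which the loop is wired. Of the 10 genes, 9 matched an entry of RefSeq's promoter sequences on build GRCm38.p6, with 13 windows of 250 bases before a start. Per2 had no entry. Windows were searched on both strands for the E-box CACGTG, an E-box variant CACGTT, the D-box TTATGTAA bound by the output factors Dbp, Tef and Hlf, the REV-ERB and ROR element TAGGTCA, and the cyclic AMP element TGACGTCA. Those that held a match were Per1, Cry1, Cry2, Nr1d1 and Per3, and 4 are shown 5′ to 3′ on the gene's strand with the matching letters in capitals: the only 2 with an E-box, the only one with a D-box, and Nr1d1 for its variant near the start.
Per1, chr11:69098699-69098948, plus strand: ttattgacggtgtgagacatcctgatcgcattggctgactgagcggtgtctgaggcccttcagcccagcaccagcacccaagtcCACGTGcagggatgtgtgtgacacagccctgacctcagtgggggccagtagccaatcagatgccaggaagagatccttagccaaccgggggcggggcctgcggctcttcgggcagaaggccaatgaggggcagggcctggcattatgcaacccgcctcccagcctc
Cry1, chr10:85185055-85185304, minus strand: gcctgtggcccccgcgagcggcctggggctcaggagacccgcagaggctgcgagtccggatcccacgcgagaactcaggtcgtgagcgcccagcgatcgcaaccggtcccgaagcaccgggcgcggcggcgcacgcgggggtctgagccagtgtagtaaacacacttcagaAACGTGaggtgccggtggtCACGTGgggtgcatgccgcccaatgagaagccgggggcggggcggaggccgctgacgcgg
Per3, chr4:151044666-151044915, minus strand: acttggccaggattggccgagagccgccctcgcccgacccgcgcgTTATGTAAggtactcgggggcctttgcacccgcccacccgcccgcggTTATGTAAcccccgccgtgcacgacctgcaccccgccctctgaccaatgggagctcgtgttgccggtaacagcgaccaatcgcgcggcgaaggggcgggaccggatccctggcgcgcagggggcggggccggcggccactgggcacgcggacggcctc
Nr1d1, chr11:98775378-98775627, minus strand: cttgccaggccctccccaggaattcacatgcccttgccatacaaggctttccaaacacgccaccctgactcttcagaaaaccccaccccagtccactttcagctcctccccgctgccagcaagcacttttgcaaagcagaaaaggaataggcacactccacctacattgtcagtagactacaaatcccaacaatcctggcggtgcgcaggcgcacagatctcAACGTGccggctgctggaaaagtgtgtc

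The E-box of Per1 lay 166 bases before the start and that of Cry1 60 bases before it, with a variant E-box (AACGTG, the variant read on the other strand) 79 bases before the Cry1 start. Among all 32841 RefSeq windows of this length, 6.02% hold CACGTG and 3.85% hold CACGTT. Per3 held 2 D-boxes, at 205 and 158 bases before its start, and 0.819% of all windows hold that element. Nr1d1 held the variant E-box 28 bases before its start and Cry2 held it 166 bases before its own. For Nr1d1 and Cry2 the RefSeq start lies outside the gene as annotated in GENCODE M21. The bases just after that start were found in no GENCODE transcript of the gene, so these 2 distances hold for the RefSeq start only. Per1 has a second RefSeq start further downstream, whose window held none of the elements. No window of Clock, Npas2, Arntl or Nr1d2 held any of the 5 elements, and neither TAGGTCA (2.24% of all windows) nor TGACGTCA (1.55%) was in any of the 13. A match describes letters in this window and nothing about binding. Elements further upstream, after the start or with other letters were not searched. A window without a match therefore does not show that the gene lacks the element. No matched letters of different elements overlapped.

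The positive limb held the gene that varied most between libraries, Npas2, and the steadiest, Clock. Clock (ENSMUSG00000029238.11, chr5:76209868-76304792) encodes the DNA-binding activator of the loop and stood at 138, 143 and 149 CPM in the wild-type libraries, 142, 141 and 174 in the Tfap2a+/- libraries and 142, 145 and 148 in those labelled Tfap2b+/-. The groups overlapped, and 8 of the 9 libraries lay between 138 and 149 CPM. The forebrain relative of Clock, Npas2 (ENSMUSG00000026077.15, chr1:39193731-39363236), stood at 53.8, 46.4 and 46.6 CPM in wild type. Tfap2a+/- libraries held 59.3, 69.0 and 64.5 CPM of it, and those labelled Tfap2b+/- held 21.6, 38.9 and 54.4 CPM. All 3 Tfap2a+/- libraries were above all 6 others, and the lowest value, in library 1 labelled Tfap2b+/-, was 3.20 times below the highest. Arntl (ENSMUSG00000055116.8, chr7:113207465-113314126), the partner that both share, stood at 37.5, 28.3 and 36.1 CPM in the wild-type libraries, 37.2, 43.0 and 52.2 in the Tfap2a+/- libraries and 30.5, 35.8 and 38.5 in those labelled Tfap2b+/-. Its 2 highest values were in Tfap2a+/-, but Tfap2a+/- library 1 lay below wild-type library 1, so the groups overlapped.

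Among the Per genes, which encode the repressor that enters the nucleus with CRY, wild-type library 3 was high for Per1 and Per2 and not for Per3. Per1 (ENSMUSG00000020893.17, chr11:69095217-69109960) stood at 94.2, 66.6 and 129 CPM in the wild-type libraries, 117, 71.5 and 83.6 in the Tfap2a+/- libraries and 69.2, 78.2 and 96.5 in those labelled Tfap2b+/-. Per2 (ENSMUSG00000055866.9, chr1:91415982-91459324) stood at 24.9, 29.2 and 57.0 CPM, 37.9, 36.6 and 37.2 CPM, and 25.2, 27.8 and 29.9 CPM in the same order of groups. The wild-type libraries spanned the whole range of Per2, 2.29 times from lowest to highest, while the Tfap2a+/- libraries lay close together and above all 3 labelled Tfap2b+/-. Per3 (ENSMUSG00000028957.12, chr4:151003652-151044665), a PER protein that is not needed for rhythm in mice, stood at 52.8, 40.4 and 49.8 CPM in the wild-type libraries, 43.5, 38.9 and 49.2 in the Tfap2a+/- libraries and 50.3, 49.8 and 46.3 in those labelled Tfap2b+/-. Its groups overlapped. Per3 lies within Camta1 on the same strand, where the counting leaves out reads that the exons of both could claim.

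The cryptochromes are the strongest repressors of the loop, and neither differed past the threshold. Cry1 (ENSMUSG00000020038.10, chr10:85131700-85185064) had the lowest counts of the 10 and stood at 13.7, 17.9 and 19.0 CPM in the wild-type libraries, 24.3, 17.9 and 19.8 in the Tfap2a+/- libraries and 17.1, 16.0 and 15.8 in those labelled Tfap2b+/-. All Tfap2a+/- values were above all values labelled Tfap2b+/-, and the wild-type values reached below and between them. Cry2 (ENSMUSG00000068742.11, chr2:92403646-92434043) stood at 158, 126 and 152 CPM in the wild-type libraries, 144, 152 and 160 in the Tfap2a+/- libraries and 112, 141 and 146 in those labelled Tfap2b+/-. Its lowest value was in library 1 labelled Tfap2b+/-, where Npas2 was lowest too, and its groups overlapped.

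The REV-ERB genes, which feed back on Arntl, showed overlapping groups throughout. Nr1d1 (ENSMUSG00000020889.11, chr11:98767932-98775333) stood at 133, 90.2 and 129 CPM in the wild-type libraries, 92.2, 104 and 119 in the Tfap2a+/- libraries and 99.1, 134 and 120 in those labelled Tfap2b+/-. Nr1d2 (ENSMUSG00000021775.11, chr14:18204054-18239127) stood at 136, 101 and 162 CPM, 130, 114 and 135 CPM, and 162, 150 and 128 CPM. Both were lowest in wild-type library 2, as were Arntl and Per1. That library also had the highest score of 8 choroid plexus genes (mean centred log2 CPM), at 3.83. The next highest was Tfap2a+/- library 1, at 2.01. The part of tissue composition in these low levels was not tested. Nr1d1 shares its end with Thra, the gene of a thyroid hormone receptor at chr11:98740638-98769006 on the opposite strand, and 38.1% to 57.7% of the stranded counts at Nr1d1 were on that opposite strand, against 0% to 1.12% at the other 9 clock genes and a median of 0.594% over 13090 genes of at least 1000 counts. The reverse-strand counts used here keep the 2 strands apart, and the values above are those of the Nr1d1 strand. In the unstranded counts Nr1d1 kept 87.7% to 93.4% of the reverse-strand number.

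**Figure D1:**
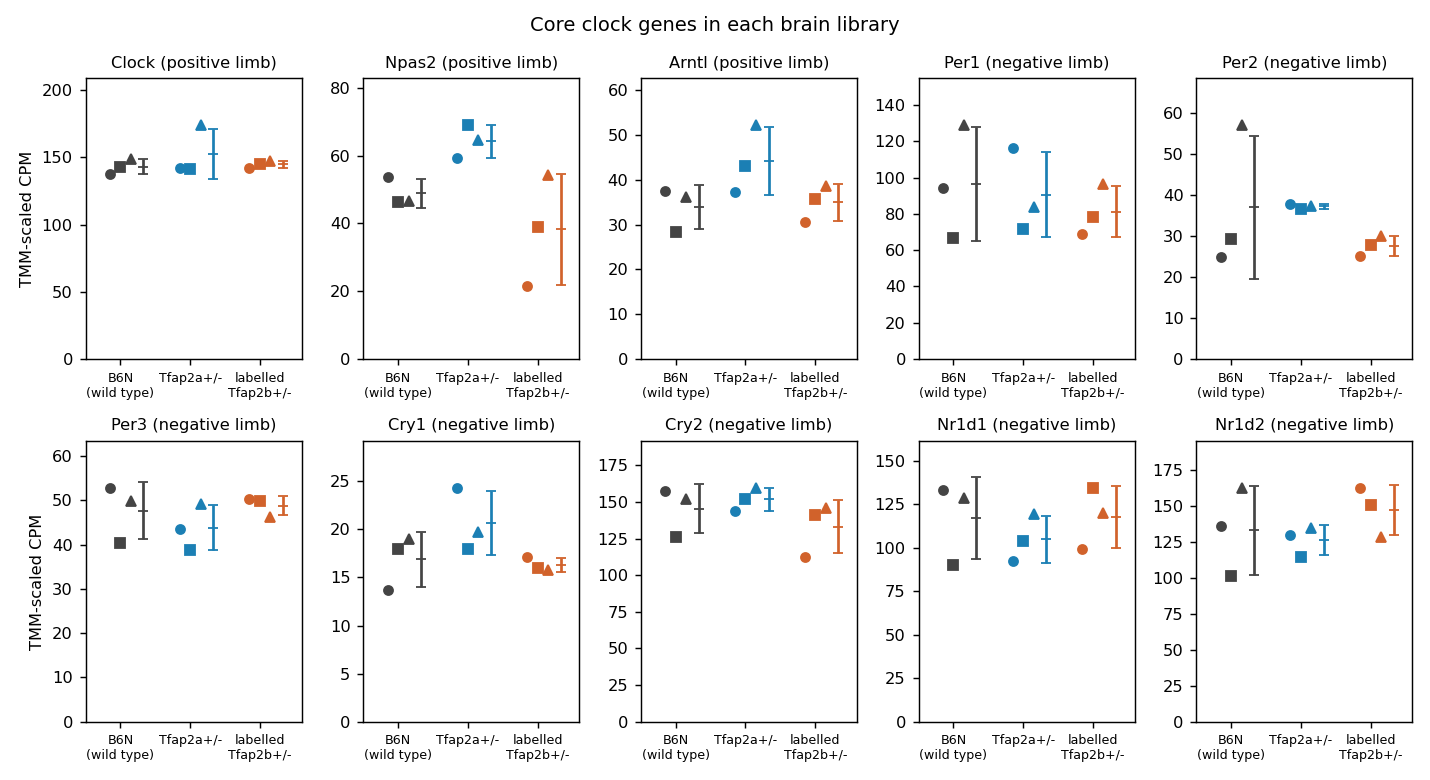
Level of each of the 10 clock genes in TMM-scaled CPM (vertical axis, from 0) in each of the 9 libraries, with circles, squares and triangles for replicates 1, 2 and 3 and bars for the mean ± SD of the 3 libraries of a group. Npas2 was at 59.3 CPM or above in all Tfap2a+/- libraries and at 54.4 CPM or below in all others, while for Per1 the wild-type libraries alone ran from 66.6 to 129 CPM.

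Per kilobase of annotated exon, a scale on which levels of different genes can be set side by side, Nr1d1 was highest with a mean of 36.8 CPM per kb over the 9 libraries, followed by Nr1d2 at 25.0, Cry2 at 22.7, Per1 at 15.9, Clock at 10.7, Npas2 at 10.5, Per2 at 5.80, Cry1 at 5.37, Arntl at 5.01 and Per3 at 4.87. The ranges over the 9 libraries overlapped between every pair of neighbours in this order, as for Nr1d1 with 29.3 to 43.7 and Nr1d2 with 18.7 to 30.0 CPM per kb. Arntl, the partner of both Clock and Npas2, was among the 4 genes of lowest level, and its range of 3.76 to 6.93 CPM per kb did not reach that of Clock, 10.1 to 12.7. Lengths sum all annotated exons, so a gene with long alternative exons gets a lower level on this scale.

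In Tfap2a+/- against wild type, Npas2, Arntl and Cry1 had the largest differences, all upward, and none passed the test. Npas2 was at 64.3 ± 4.88 against 48.9 ± 4.23 CPM (SD, n = 3 each), a log2 difference of 0.39 ± 0.27 (SE) with an adjusted p of 0.999 in edgeR's quasi-likelihood test over all 17355 genes. Arntl was at 44.1 ± 7.52 against 34.0 ± 4.96 CPM, a log2 difference of 0.38 ± 0.16 that had an unadjusted p of 0.0383 and an edgeR adjusted p of 0.999. Without Tfap2a+/- library 3, the highest for Arntl, that difference was 0.25. Of the 10 clock genes 0 passed an adjusted p of 0.05, as did 0% of all genes tested. At an unadjusted p under 0.05 there was 1 clock gene, Arntl, beside 3.84% of all genes, and 1 of the 10, Npas2, had groups that did not overlap, beside 9.17% of all genes. A share of 1 in 10 is near that background. The median log2 difference of the 10 was 0.03, and of all genes -0.01. In whole-brain tissue or any piece of it, fewer cells of a type that makes an RNA and less of that RNA per cell cannot be told apart.

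In the libraries labelled Tfap2b+/- against wild type, 0 of the 10 clock genes passed any of the thresholds used. The largest difference was in Per2, at 27.6 ± 2.39 against 37.1 ± 17.4 CPM, a log2 difference of -0.43 ± 0.26 with an edgeR adjusted p of 0.564, which became 0.03 when wild-type library 3 was left out and -0.64 when library 1 was. Npas2 came next with a log2 difference of -0.35 ± 0.27 and an edgeR adjusted p of 0.631, and it was -0.06 without library 1 and -0.70 without library 3 of those labelled Tfap2b+/-. Of the 10 clock genes 0 passed an adjusted p of 0.05 (0% of all genes), 0 had an unadjusted p under 0.05 (10.6% of all genes), and 0 had groups that did not overlap (16.5% of all genes). The median absolute log2 difference was 0.09 for the 10 and 0.16 for all genes.

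The libraries labelled Tfap2b+/- against the Tfap2a+/- libraries gave the largest difference of the 30 computed, in Npas2, at 38.3 ± 16.4 against 64.3 ± 4.88 CPM. The log2 difference was -0.75 ± 0.27, with an unadjusted p of 0.0219 and an edgeR adjusted p of 0.39, and it was -0.46 without library 1 and -1.09 without library 3 of those labelled Tfap2b+/-. Cry1 was at 16.3 ± 0.708 against 20.7 ± 3.29 CPM, a log2 difference of -0.35 ± 0.15 with an unadjusted p of 0.0467 and an edgeR adjusted p of 0.43, which was -0.21 without Tfap2a+/- library 1. Per2 was at 27.6 ± 2.39 against 37.3 ± 0.655 CPM, a log2 difference of -0.43 ± 0.27 with an edgeR adjusted p of 0.54. The count at an adjusted p under 0.05 was 0 of 10 beside 0% of all genes. At an unadjusted p under 0.05 it was 2 of 10 beside 11.5%, and 3 of 10 had groups that did not overlap (Npas2, Per2 and Cry1, all lower in the libraries labelled Tfap2b+/-) beside 17.2%. This comparison reuses the libraries of the other comparisons. The median log2 difference of the 10 was -0.17, against 0.01 for all genes.

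A test for any difference among the 3 genotypes called 0 of the 10 (0% of all genes) at an adjusted p of 0.05 and 0 at an unadjusted p of 0.05 (9.36% of all genes). The smallest unadjusted values were 0.0612 for Npas2, 0.0694 for Arntl and 0.0923 for Cry1. DESeq2 called 0 of the 10 in every comparison as well, where it called between 30 and 252 genes in all. A p that misses the threshold does not show equal levels, so the intervals matter. The 95% intervals of the log2 difference lay within 1 of 0, that is within a 2-fold change either way, for 9 of 10 genes against wild type in each heterozygote and for 8 of 10 between the heterozygotes. Those that reached further were Npas2 in Tfap2a+/- against wild type (-0.21 to 1.001), Per2 in the libraries labelled Tfap2b+/- against wild type (-1.03 to 0.18), and between the heterozygotes Npas2 (-1.36 to -0.14) and Per2 (-1.03 to 0.17). Differences of a size of 0.5 lay outside the interval for fewer genes, 4, 6 and 3 of 10 in the same order of comparisons.

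**Figure D2:**
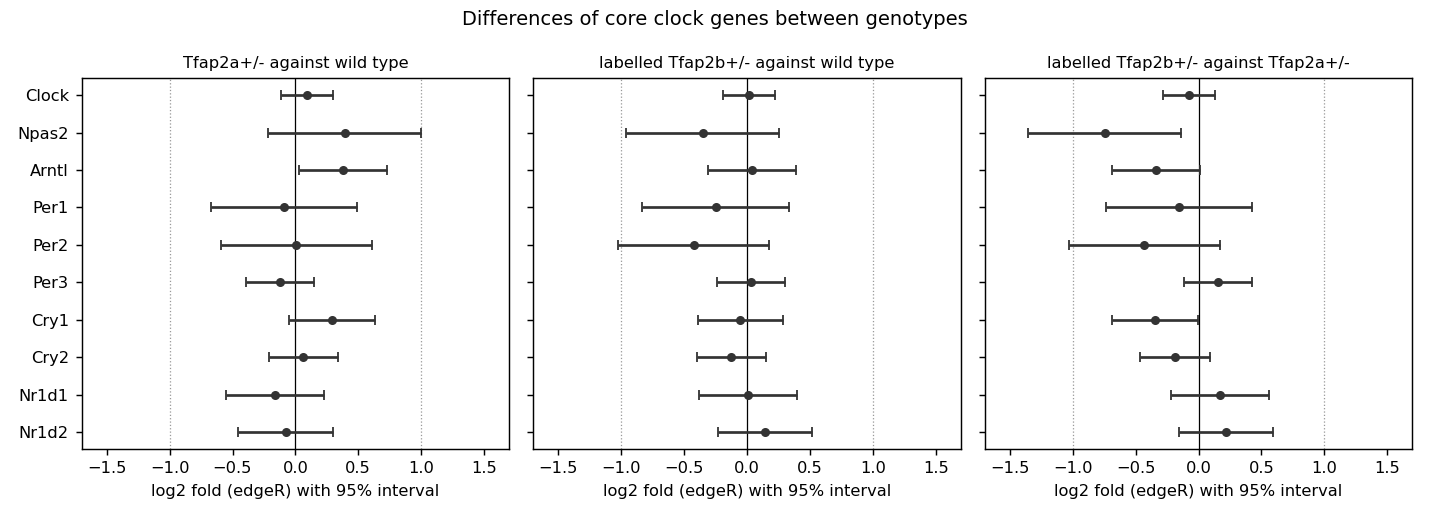
Difference of each clock gene between genotypes on the log2 scale (horizontal axis) with its 95% interval from edgeR, for the 3 comparisons, with dotted lines at a 2-fold change. Most intervals cross 0, and the widest and lowest belongs to Npas2 in the libraries labelled Tfap2b+/- against Tfap2a+/-, from -1.36 to -0.14.

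The genes of the loop varied more between replicates than most genes of similar level. Within groups the SD of log2 CPM was 0.40 for Npas2, 0.37 for both Per1 and Per2, 0.24 for Nr1d1, 0.23 for Nr1d2, 0.21 for Arntl, 0.20 for Cry1, 0.16 for Cry2 and Per3 and 0.10 for Clock. The median of the 10 was 0.22, against 0.13 for the 6649 genes whose mean lay within the clock genes' own range of 17.9 to 147 CPM. Of the 10, 9 lay above that median, with Npas2 higher than 92.5% of those genes, Per2 higher than 91.3% and Per1 higher than 91.2%. Clock was the exception, higher than 34.8%. Counting error amounted to an SD of 0.07 at most. Leaving out single libraries put the median of the 10 between 0.17 and 0.25, lowest without wild-type library 2. The median of the genes of similar level was not recomputed for those settings. Against all genes tested, of which many have low counts, the clock genes did not stand apart, with a median of 0.22 in both. The groups differed in which genes varied: the SD of Per2 was 0.63 in wild type, 0.03 in Tfap2a+/- and 0.13 in the libraries labelled Tfap2b+/-, and that of Npas2 was 0.67 in the libraries labelled Tfap2b+/- and 0.12 and 0.11 in the others.

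**Figure D3:**
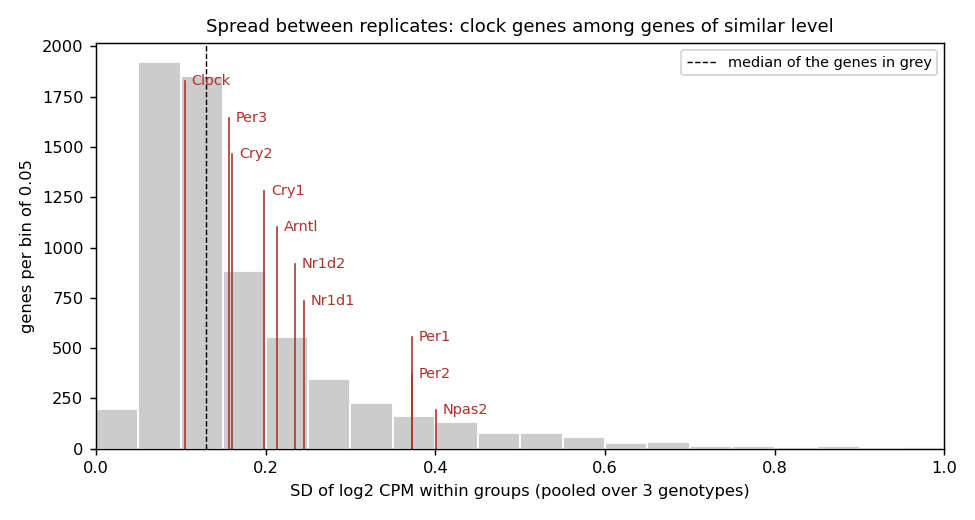
Number of genes (vertical axis) by the SD of log2 CPM within groups (horizontal axis) for the 6649 genes of similar level, in grey, with the 10 clock genes as red lines. Clock at 0.10 lies left of the dashed median of 0.13, the other 9 lie right of it, and Per1, Per2 and Npas2 lie furthest out at 0.37 to 0.40.

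The balance of the limbs was computed for each library as the mean of the 3 positive-limb genes minus the mean of the 7 negative-limb genes, each gene taken as log2 CPM minus its mean over the 9 libraries. It was 0.04, 0.07 and -0.33 in wild type, -0.01, 0.31 and 0.30 in Tfap2a+/-, and -0.37, -0.12 and 0.09 in the libraries labelled Tfap2b+/-. The libraries thus spanned 0.68, or 1.60-fold, and each genotype had libraries on either side of 0. Group means were -0.07 ± 0.22, 0.20 ± 0.18 and -0.13 ± 0.23 (SD, n = 3 each), and the groups overlapped. The balance is a score over genes that were chosen with earlier results known and carries no test. Without library 3 of the wild type the mean difference between Tfap2a+/- and wild type was 0.15 in place of 0.27.

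The 2 limbs contributed unequally. The positive limb alone was at 0.03, -0.16 and -0.02 in wild type, 0.09, 0.23 and 0.39 in Tfap2a+/- and -0.50, -0.13 and 0.08 in the libraries labelled Tfap2b+/-, a range of 1.84-fold. The negative limb was at -0.01, -0.24 and 0.30, at 0.09, -0.09 and 0.09, and at -0.13, -0.01 and -0.01, a range of 1.45-fold. Wild-type library 3 reached its low balance through the negative limb, with Per1 and Per2 high, and library 1 labelled Tfap2b+/- through the positive limb, with Npas2 low. With Npas2 left out of the positive limb, the mean difference in balance between the libraries labelled Tfap2b+/- and Tfap2a+/- was -0.12 in place of -0.33, and with Npas2 kept it was -0.21 without library 1 labelled Tfap2b+/-. In 5 of the 9 libraries both limbs lay on the same side of their mean, and in 4 on opposite sides.

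Arntl against Nr1d1, the pair joined by direct repression, gave Tfap2a+/- libraries that lay apart from the others. The ratio of their CPM was 0.282, 0.314 and 0.280 in wild type, 0.404, 0.415 and 0.438 in Tfap2a+/- and 0.308, 0.266 and 0.321 in the libraries labelled Tfap2b+/-. The means were 0.292 ± 0.019, 0.419 ± 0.017 and 0.298 ± 0.029 (SD, n = 3 each). All Tfap2a+/- libraries lay above the 6 others, and the highest ratio was 1.65 times the lowest. The ratio was singled out after its values were seen and, being a score over the clock genes, carries no test. On the log2 scale, Arntl minus the mean of Nr1d1 and Nr1d2 differed by 0.47 between Tfap2a+/- and wild type and by -0.05 between the libraries labelled Tfap2b+/- and wild type. Without an hour of collection, genotype and time of day cannot be told apart in these values, and no library was assigned an hour.

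**Figure D4:**
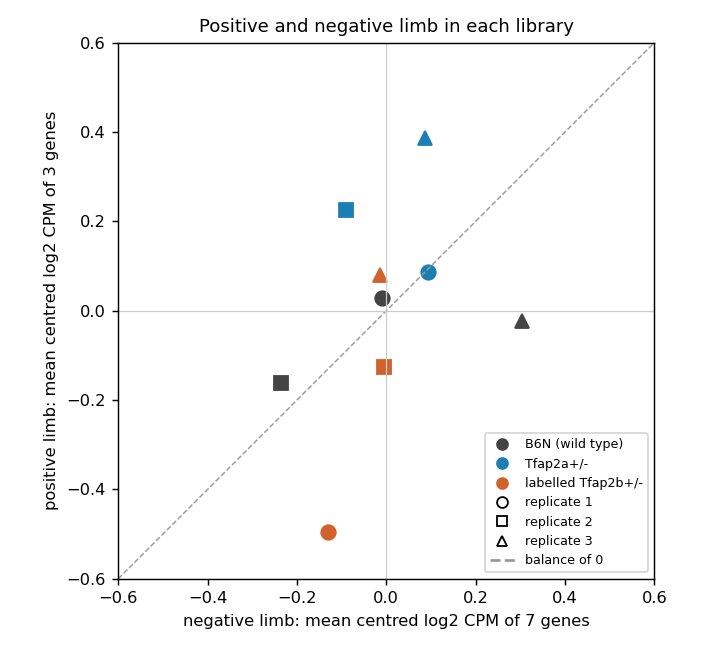
Mean centred log2 CPM of the 3 positive-limb genes (vertical axis) against that of the 7 negative-limb genes (horizontal axis) in each library, with a dashed line where the balance is 0. Tfap2a+/- libraries 2 and 3 lie furthest above the line at 0.31 and 0.30, and wild-type library 3 and library 1 labelled Tfap2b+/- furthest below it at -0.33 and -0.37.

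Across the 9 libraries the limbs moved more often together than against each other. Of the 21 pairs made of a gene from each limb, 19 had a Pearson's r above 0, with a median of 0.23 and a range of -0.55 to 0.84. Of the 24 pairs within a limb, 18 had an r above 0, with a median of 0.33. Arntl and Nr1d1, opposed in the textbook loop, had r = 0.38 and Spearman's rho = 0.23, with an exact permutation p of 0.318, and r = 0.91 once each group's mean had been taken out. Without wild-type library 2 and Tfap2a+/- library 3, the libraries farthest from the median of Arntl, r was 0.07. All points share libraries, depth and scaling, and the clock genes are not independent of each other.

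The closest pairs joined Cry2 with the positive limb and Per3 with Nr1d2. Npas2 and Cry2 had r = 0.84 and rho = 0.75, with an exact permutation p of 0.0108 that became 0.17 over the 45 pairs, and r = 0.52 without the 2 farthest libraries. Arntl and Cry2 had r = 0.79 and rho = 0.87, an exact permutation p of 0.0113, the same adjusted value of 0.17, and r = 0.82 without the 2 farthest. Per3 and Nr1d2 had r = 0.81 and rho = 0.82, an exact permutation p of 0.00815, an adjusted value of 0.17 and r = 0.51 without the 2 farthest. Per1 and Per2, which share light- and activity-driven induction, had r = 0.64 and rho = 0.57 with an exact permutation p of 0.0607, adjusted 0.401. Without wild-type library 3 and Tfap2a+/- library 1 their r was -0.08, so the relation rested on those libraries. None of the 45 pairs passed an adjusted p of 0.05.

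**Figure D5:**
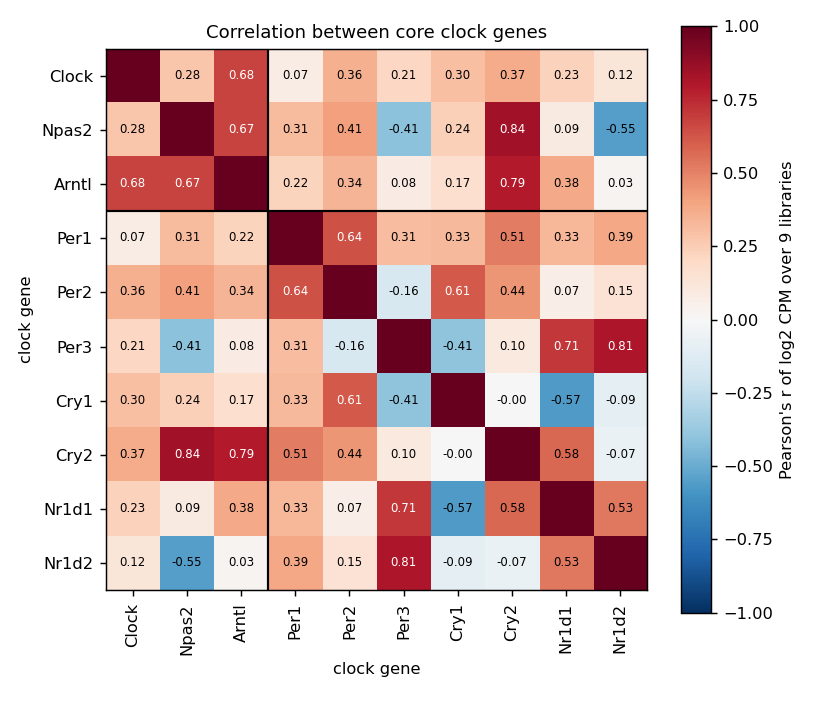
Pearson's r of log2 CPM over the 9 libraries for every pair of clock genes, from -1 (blue) to 1 (red), with black lines between the positive limb and the negative limb. The block between the limbs is mostly red, with 19 of 21 pairs above 0, and the clearest blue cells are Cry1 with Nr1d1 at -0.57 and Npas2 with Nr1d2 at -0.55.

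Of the relations between clock genes and lists of region, cell type or response genes, Cry2 with the cortical genes was the only one past an adjusted p of 0.05 by Pearson's r, and that and Arntl with the myelin genes were the only ones by rho. Scores of 18 lists were compared with each of the 10 genes, 180 relations in all, each score being the mean of its genes' centred log2 CPM. Cry2 followed the 8 cortical genes, with r = 0.93 and rho = 0.95, an exact permutation p of 9.6e-05, an adjusted p of 0.0174, and r = 0.83 without Tfap2a+/- library 3 and library 1 labelled Tfap2b+/-. That adjusted p was above 0.05 without wild-type library 1 (0.0871), wild-type library 3 (0.067), Tfap2a+/- library 3 (0.0893) or library 1 labelled Tfap2b+/- (0.23), with unstranded counts (0.0546), and without Rorb in the list (0.0541). The summed level of the cortical genes was 1993 to 2572 CPM in wild type, 1523 to 2746 CPM in Tfap2a+/- and 877 to 2137 CPM in the libraries labelled Tfap2b+/-, with none of the 8 at 0. Arntl ran against the 7 myelin genes with r = -0.83 (adjusted exact permutation p of 0.224) and rho = -0.95 (adjusted 0.0318), and r was -0.87 without Tfap2a+/- library 3 and library 3 labelled Tfap2b+/-. Those 7 genes, none at 0, summed to 4710 to 6989 CPM in wild type, 2185 to 5690 CPM in Tfap2a+/- and 2606 to 7118 CPM in the libraries labelled Tfap2b+/-. The part that tissue composition has in the differences of Cry2 and Arntl was not tested.

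Npas2 was lowest where the hindbrain genes were highest, though no relation of Npas2 or Per3 passed the adjusted p. Its r with the hindbrain score was -0.90 and its rho -0.65, with an exact permutation p of 0.0107, adjusted 0.224, and r was -0.74 without libraries 1 and 3 labelled Tfap2b+/-. With the score of 6 neuronal genes r was 0.90 and rho 0.68, with an exact permutation p of 0.00816, adjusted 0.224, and r was 0.24 without libraries 1 and 2 labelled Tfap2b+/-. The neuronal genes, none at 0, summed to 8201 to 9202 CPM in wild type, 7246 to 9591 CPM in Tfap2a+/- and 5801 to 8395 CPM in the libraries labelled Tfap2b+/-. With the score of 5 microglial genes, Npas2 had r = 0.88 and rho = 0.50, with an exact permutation p of 0.00705, adjusted 0.224. That r was 0.15 without Tfap2a+/- library 2 and library 1 labelled Tfap2b+/-. The part of any of these lists in the Npas2 difference was not tested. Per3 ran against the 12 striatal genes, with r = -0.83 and rho = -0.92, an exact permutation p of 0.0064, adjusted 0.224, and r = -0.78 without Tfap2a+/- libraries 1 and 2. The striatal genes, none at 0, summed to 487 to 1109 CPM in wild type, 1052 to 2949 CPM in Tfap2a+/- and 432 to 858 CPM in the libraries labelled Tfap2b+/-. Of 7 genes of the suprachiasmatic nucleus, the seat of the master clock, 4 were tested and summed to 63.3 to 179 CPM, while Six6, Nms and Prok2 did not pass the filter. Rorb, 1 of those 4 and also in the cortical list, alone stood at 42.4 to 127 CPM. The sum is therefore not a measure of that nucleus alone.

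Per1 and Per2 also respond to neuronal activity, but their relations with 19 immediate early genes did not pass the adjusted p. Per2 had r = 0.82 and rho = 0.70 with their score, an exact permutation p of 0.00877, adjusted 0.224, and r = 0.41 without wild-type library 3 and library 1 labelled Tfap2b+/-. For Per1 the same values were r = 0.71 and rho = 0.65, an exact permutation p of 0.0284, adjusted 0.288, and r = 0.31 without those libraries. The score was highest, at 1.29, in wild-type library 3, where Per1 and Per2 were highest, and lowest, at -1.01, in library 1 labelled Tfap2b+/-. The immediate early genes, none at 0, summed to 1103 to 2404 CPM in wild type, 1071 to 1442 CPM in Tfap2a+/- and 481 to 758 CPM in the libraries labelled Tfap2b+/-. Against wild type in those libraries 0 of the 19 passed an adjusted p of 0.05 in edgeR, and the median log2 difference was -1.35. At an unadjusted p under 0.05, 17 of the 19 were lower, beside 720 lower of all 17355 genes (10.6% in either direction). Per1 and Per2 differed by -0.25 ± 0.26 and -0.43 ± 0.26 in the same comparison, with edgeR adjusted p of 0.725 and 0.564. Per1 is also induced by glucocorticoids. Of the 12 glucocorticoid-responsive genes 0 passed the adjusted p in any comparison, as did 0% of all genes. Against wild type 0 of the 12 had a log2 difference above 0 in either heterozygote, with medians of -0.31 in Tfap2a+/- and -0.41 in the libraries labelled Tfap2b+/-, and 3 were lower at an unadjusted p under 0.05 in each, beside 3.84% and 10.6% of all genes in either direction. Their score was highest in wild-type library 3, at 0.70.

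The genes next to the loop, 24 output factors, kinases and ubiquitin ligases, were all tested and 0 were called in any of the 3 comparisons. Their median log2 difference was 0.01 in Tfap2a+/- against wild type, -0.02 in the libraries labelled Tfap2b+/- against wild type and -0.09 between the heterozygotes, close to the -0.01, -0.00 and 0.01 of all genes. Groups did not overlap for 2, 2 and 4 of the 24 in the same order, beside 9.17%, 16.5% and 17.2% of all genes. The E-box-driven activators that bind D-boxes, Dbp, Tef and Hlf, showed small differences. Dbp was at 60.2 ± 14.8 CPM in the wild-type libraries, 52.0 ± 9.07 in the Tfap2a+/- libraries and 58.6 ± 7.16 in those labelled Tfap2b+/-. Tef was at 363 ± 20.7, 347 ± 3.38 and 315 ± 17.3 CPM, lower in all 3 libraries labelled Tfap2b+/- than in any other, with an edgeR adjusted p of 0.452 against wild type. Hlf ranged from 139 CPM in wild-type library 2 to 362 CPM in Tfap2a+/- library 3.

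None of the repressors beside the loop passed the test. Ciart, whose protein CHRONO represses the CLOCK and BMAL1 pair, was at 9.03 ± 2.50 CPM in the wild-type libraries, 6.16 ± 0.837 in the Tfap2a+/- libraries and 8.48 ± 0.563 in those labelled Tfap2b+/-. Its log2 difference in Tfap2a+/- against wild type was -0.55 ± 0.21, with an unadjusted p of 0.027 and an edgeR adjusted p of 0.999. Nfil3, which competes at D-boxes, lay between 7.04 and 10.2 CPM in all libraries. Bhlhe40 and Bhlhe41, which encode the DEC repressors of E-boxes, lay between 81.9 and 158 CPM and between 27.9 and 59.2 CPM. Bhlhe41 had a log2 difference of 0.57 ± 0.20 in the libraries labelled Tfap2b+/- against Tfap2a+/-, with an unadjusted p of 0.0182 and an edgeR adjusted p of 0.389. Of the genes that set the stability of PER and CRY, Csnk1d, a kinase of PER, was at 132 ± 7.96, 126 ± 2.04 and 113 ± 2.43 CPM, with a log2 difference of -0.21 ± 0.07 against wild type in the libraries labelled Tfap2b+/- and an edgeR adjusted p of 0.383. Fbxl21, part of a ubiquitin ligase for CRY, was at 4.99 ± 0.829, 5.89 ± 0.930 and 7.17 ± 1.64 CPM. Arntl2, the paralogue of Arntl, was at 5.89 ± 2.47, 8.29 ± 2.14 and 9.02 ± 1.23 CPM.

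The genes whose levels ran most like the limb balance were sought among 11561 genes with a mean of at least 5 CPM, by Pearson's r over the 9 libraries and with no test, since they are the extremes of that search. The 5 most alike were Sgcb (r = 0.96), Coq4 (0.96), Scube1 (0.96), Gsg1l (0.94) and Zfyve28 (0.94). The 5 most opposite were Ccdc190 (-0.97), Cdkn1b (-0.95), Arfgap3 (-0.94), Tox2 (-0.94) and Glra1 (-0.94). All 10 had their extreme in library 1 labelled Tfap2b+/-, the lowest level for the first 5 and the highest for the others. Glra1, a glycine receptor subunit of brainstem and spinal cord, ran from 0.599 CPM in Tfap2a+/- library 3 to 37.4 CPM in that library, where the hindbrain score was also highest at 5.55. No gene next to the clock, Dbp and Ciart included, was among the 10.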

How the data were processed

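Libraries were made from polyadenylated RNA with a dUTP kit, which keeps the strand, per the labels' protocols. The authors deposited whole-number counts per gene for each library, arranged as STAR writes them, with unstranded, forward and reverse readings. The submitters' processing notes list STAR 2.6.1d, cutadapt 2.4 and edgeR as tools and GRCm38.p6 as the build. Which annotation release was counted is not given in the sources used. From the deposited counts the reverse-strand reading was used, since the forward strand held 4.16% to 4.94% of stranded gene counts. Rows that name no gene held 15.5% to 19.7% of fragments and stayed out of library sizes and tests. Their share was 19.3% to 19.7% in the libraries labelled Tfap2b+/- and 15.5% to 17.8% in all others. This difference goes with the label, and its part in the comparisons was not tested. Of 54446 gene identifiers, 54409 matched GENCODE M21 without version numbers, the source of symbols, coordinates and exon lengths.

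After filterByExpr, edgeR 4.0.16 (under R 4.3.3) fitted all 9 libraries with TMM scaling and a single term for genotype, the quasi-likelihood F-test was used, and Benjamini-Hochberg adjustment ran over 17355 genes. Log2 CPM values used a prior count of 2. Correlations used two-sided exact permutation tests over 9 libraries (scipy 1.17.1), adjusted within each family. List scores average the centred log2 CPM of the listed genes. The floor of 3 counts reflects counting error alone, as duplicates from PCR were not separable, while the intervals of log2 differences carry the spread between libraries. No 2 libraries of a genotype agreed within sampling noise, with a chi-square per degree of freedom of 18.7 or more. The code was tested on simulated data. The clock genes, gene lists and tests were chosen with earlier results of these data known. Beside the clock genes, the text names Dbp, Tef, Hlf, Ciart, Nfil3, Bhlhe40, Bhlhe41, up to 4 neighbours of the loop with the smallest p for any genotype difference, and the 5 genes most like and most unlike the balance. Values of some listed genes are not reported here. Alternatives were DESeq2 1.42.0, its size factors, other filters, unstranded counts, a robust fit, only the genotypes compared, other make-ups of the limbs, the replicate number as a block, and each library left out.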

Additional observations from a re-analysis of the deposited data

Results flagged for a closer look

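Counts on the strand opposite to a clock gene belong to no comparison above. On the strand opposite to Clock, the libraries labelled Tfap2b+/- held 0.770 CPM on average (0.708 to 0.847) and the wild-type libraries 0.553 CPM (0.517 to 0.602), drawn to attention because the groups did not overlap. The Tfap2a+/- libraries held 0.924, 1.07 and 0.461 CPM there, below and above both. On the strand opposite to Per3 the same groups held 0.224 CPM (0.141 to 0.303) and 0.0794 CPM (0.0470 to 0.116), also without overlap, and the Tfap2a+/- libraries held 0.103, 0.312 and 0.0461 CPM, spanning both. Of 13090 genes with at least 1000 stranded counts, 5% had opposite-strand values that were higher in all 3 libraries labelled Tfap2b+/- than in any wild-type library. These values rest on 11 to 24 counts per library at Clock and 1 to 9 at Per3 in these 2 groups.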

How the results depend on the processing

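None of the 10 clock genes passed an adjusted p of 0.05 under any setting tried, and the smallest adjusted p among 540 recomputed differences over 18 settings was 0.113. The replicate number as a block called 0 clock genes in every comparison. No label says that libraries of the same replicate number belong together. Of 9 same-numbered pairs 3 deviated together with r above 0.1 (range -0.53 to 0.42), and 2 libraries resembled their own number best. With 3 libraries per group and differing regional genes, these correlations cannot decide whether the numbers mark a pairing. Direction held in 511 of the 540 and turned in 29, the largest of these having a difference of size 0.43. The counts over all genes moved: DESeq2 called 30, 175, 221 and 252 genes (Tfap2a+/- against wild type, labelled Tfap2b+/- against wild type, between heterozygotes, any genotype), and with no filter on low counts 2, 7 and 14 in all but the labelled Tfap2b+/- against wild type. With the libraries highest in choroid plexus or hindbrain genes in their groups left out together (wild type 2, Tfap2a+/- 1, labelled Tfap2b+/- 1), 2 genes were called for the labelled Tfap2b+/- libraries against wild type, 1 between heterozygotes and 2 for any genotype. Leaving out single libraries gave 0 to 3, 0 to 4, 0 to 31 and 0 to 16 genes. Without Npas2 the balance difference between heterozygotes was -0.12.

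Log2 differences that turned, with each library left out, were in Tfap2a+/- against wild type Clock (-0.0075 to 0.15), Cry2 (-0.02 to 0.13), Nr1d2 (-0.23 to 0.094), Per1 (-0.31 to 0.17) and Per2 (-0.21 to 0.46). In the labelled Tfap2b+/- libraries against wild type they were Clock (-0.010 to 0.044), Arntl (-0.067 to 0.14), Cry1 (-0.19 to 0.039), Nr1d1 (-0.14 to 0.12), Nr1d2 (-0.013 to 0.31), Per1 (-0.45 to 0.014), Per2 (-0.64 to 0.026) and Per3 (-0.064 to 0.11), and between heterozygotes Clock (-0.13 to 0.024) and Per1 (-0.30 to 0.068). With the 3 libraries left out together, Per2 in Tfap2a+/- was -0.15, Per3, Nr1d1 and Nr1d2 in the labelled Tfap2b+/- libraries were -0.086, -0.032 and -0.091 against wild type, and Per1 between heterozygotes was 0.17. With no filter Per2 was -0.0060 in Tfap2a+/- and Nr1d1 -0.0058 in the labelled Tfap2b+/- libraries, and Nr1d1 was -0.0098 with unstranded counts. The cause was not tested. With 3 libraries per group, differences under about 0.5 in the more variable genes were within their intervals.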

Other observations

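Temperature-responsive genes, 8 in number, were measured because the brain clock is sensitive to body temperature. Against wild type, 1 was higher and 4 were lower in the libraries labelled Tfap2b+/- at an unadjusted p under 0.05 in edgeR, and 0 passed an adjusted p of 0.05. Of all 17355 genes 10.6% had such an unadjusted p, 1121 higher and 720 lower. Groups did not overlap for 7 of the 8, beside 16.5% of all genes. The higher gene, named after its values were seen, was Cirbp, an RNA-binding protein induced by mild cold. Wild-type libraries held 35.0, 36.7 and 32.2 CPM, Tfap2a+/- libraries 34.9, 33.8 and 34.6 CPM, and those labelled Tfap2b+/- 50.2, 45.4 and 46.5 CPM, higher in 3 of 3. The log2 difference was 0.45 ± 0.08 against wild type, with an edgeR adjusted p of 0.212. The 4 lower genes, also named after their values were seen, were the heat shock genes Hsph1 (log2 difference -0.45 ± 0.09), Hspa1b (-1.28 ± 0.34), Dnajb1 (-0.40 ± 0.12) and Hspa1a (-0.58 ± 0.19), each lower in all 3 libraries than in any wild-type library, with edgeR adjusted p of 0.262 to 0.389. Rbm3, another cold-induced RNA-binding protein, was at 36.1 ± 2.79, 37.0 ± 4.14 and 39.6 ± 6.20 CPM (SD, n = 3 each) in wild type, Tfap2a+/- and the libraries labelled Tfap2b+/-.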
